A study of Homo sapiens with 6 samples.

Results

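This report covers XBP1, ERN1, ATF6 and SEL1L, genes of the unfolded protein response, in neuroblastoma cells given the compound NCT-503. The 4 genes were taken by gene symbol, and each had exactly 1 row among the 14779 genes with a named row (31135 rows in all). RNA came from BE(2)-C, an established human neuroblastoma line, kept for 2 days with the vehicle DMSO (3 samples) or with 10 µM NCT-503 (3 samples). The compound blocks PHGDH, the enzyme that opens serine synthesis. All 6 samples are the same line in the same serum-containing medium, so 1 line stands for the tumour, and no label tells whether a group's samples came from separate cultures. Each sample went to 1 Affymetrix whole-transcript array. The p-values therefore measure the spread between these samples, which may be technical.

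The unfolded protein response senses misfolded proteins in the endoplasmic reticulum (ER) through membrane proteins. ERN1 encodes IRE1 alpha, a kinase and ribonuclease that removes a short intron from XBP1 mRNA, so that XBP1 is translated as an active transcription factor. ATF6 encodes a membrane-bound factor that is cut free in the Golgi by the proteases encoded by MBTPS1 and MBTPS2. The remaining sensor, PERK, is encoded by EIF2AK3 and phosphorylates eIF2 alpha, which favours translation of ATF4. SEL1L is the adaptor of the HRD1 ubiquitin ligase, which sends misfolded ER proteins to the proteasome (ER-associated degradation). An array row measures the amount of transcript only: XBP1 splicing, ATF6 cleavage and kinase activity were not measured here.

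All 4 genes rose with NCT-503. XBP1 rose 2.60-fold (95% interval 2.27 to 2.98), ERN1 2.51-fold (2.14 to 2.94), SEL1L 1.74-fold (1.56 to 1.94) and ATF6 1.44-fold (1.28 to 1.62). Over all genes tested, 16.4% were called higher (limma, adjusted p under 0.05 over 14779 genes). EIF2AK3, by contrast in sign, was among the 17.1% called lower.

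XBP1, the transcription factor of the IRE1 branch, stood at 7.40, 7.53 and 7.39 in DMSO a, b and c and at 8.87, 8.87 and 8.72 in NCT-503 a, b and c (deposited log2 values). Every treated array lay above every DMSO array, and NCT-503 c was the lowest of the treated arrays. The change, NCT-503 minus DMSO, was 1.38 ± 0.08 on the log2 scale (SE, n = 3 each, adjusted p = 6.70e-05). By size it was number 50 of 14779 when genes were ordered from the largest rise down.

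ERN1, the sensor that splices XBP1, read 4.65, 4.80 and 4.72 in the DMSO arrays and 6.05, 6.19 and 5.91 in the treated arrays. The groups were more than 1 log2 unit apart, and NCT-503 c was again the lowest treated array. Its change was 1.33 ± 0.10 (SE, adjusted p = 0.000124), number 59 in the same order.

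SEL1L, the degradation adaptor, had the tightest arrays in DMSO, at 8.03, 8.07 and 8.06, against 8.87, 8.85 and 8.83 with NCT-503. The groups did not overlap. The change was 0.80 ± 0.07 (SE, adjusted p = 0.000214), number 299 of all genes.

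ATF6 had values of 9.21, 9.25 and 9.14 in DMSO and of 9.72, 9.73 and 9.72 with NCT-503. The treated arrays differed by little among themselves, with an SD of 0.0082 against 0.0533 in DMSO, and lay above all DMSO arrays. The change was 0.53 ± 0.07 (SE, adjusted p = 0.00142), number 1023 of all genes. All 4 genes thus had groups that did not overlap, as had 25.4% of all genes in that direction. The exact two-sided permutation test gave p = 0.1 for each of the 4, the smallest value that 3 against 3 arrays allow.

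**Figure D1:**
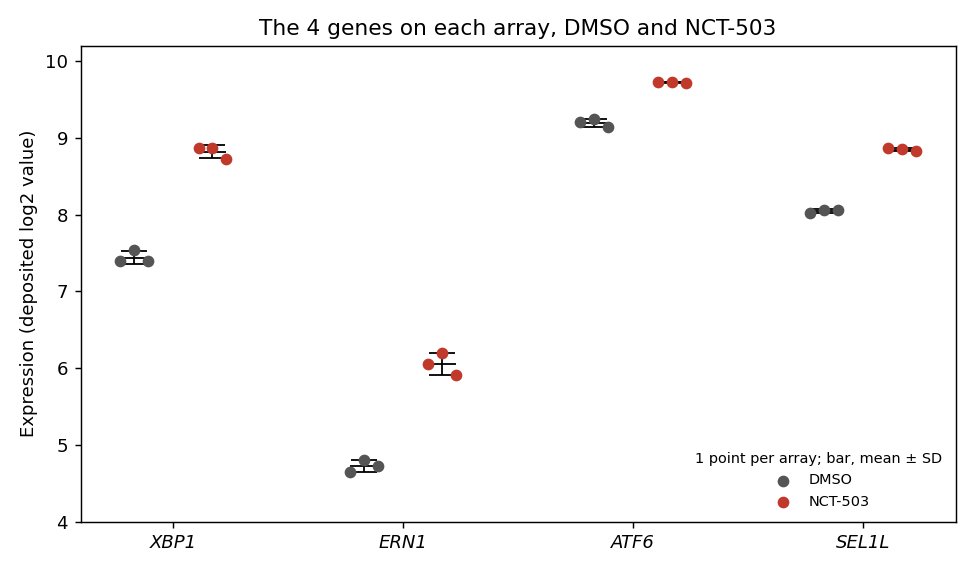
Deposited log2 values (vertical axis) of XBP1, ERN1, ATF6 and SEL1L on each of the 6 arrays, grey for DMSO and red for NCT-503; bars are the mean ± SD of 3 arrays. In each gene the 3 NCT-503 points lie above the 3 DMSO points, with the widest gaps in XBP1 (1.38) and ERN1 (1.33).

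**Figure D2:**
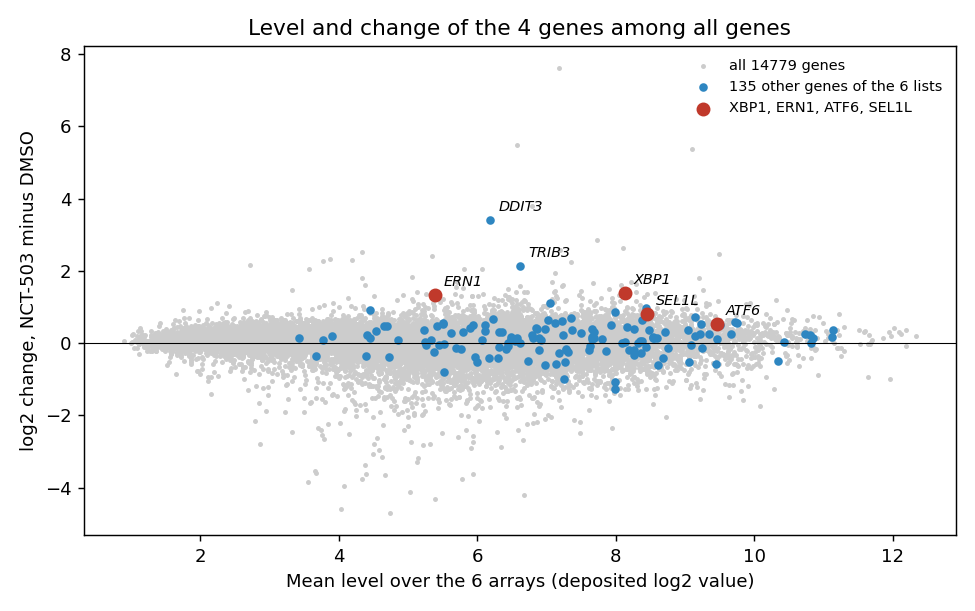
The log2 change of each of 14779 genes (vertical axis) against its mean deposited log2 value over the 6 arrays (horizontal axis), with the 4 genes in red and the 135 other measured genes of the 6 pathway lists in blue. DDIT3 and TRIB3 are the only blue points above XBP1.

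Changes were compared between genes as the difference of 2 genes on the same array, which also removes any shift common to an array. ERN1 and XBP1 changed by similar amounts: the change of ERN1 minus that of XBP1 was -0.05 (95% interval -0.27 to 0.17, limma adjusted p = 0.615). Differences within that interval were not excluded. SEL1L changed by 0.58 less than XBP1 (difference -0.58 ± 0.10 SE, adjusted p = 0.000267) and ATF6 by 0.85 less (-0.85 ± 0.10, adjusted p = 1.79e-05). Most genes fell short of XBP1 in this test, 99.1% of 14778, so these calls say only that the rises of SEL1L and ATF6 were smaller.

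The remaining pairs were compared by exact permutation alone. The change of ERN1 was 0.53 above that of SEL1L and 0.80 above that of ATF6, and that of ATF6 was below that of SEL1L by 0.27 (difference -0.27). Over the 6 pairs of the 4 genes, the exact two-sided p was 0.1 in 5 pairs (0.12 after Benjamini-Hochberg adjustment) and 0.3 for XBP1 against ERN1. In those 5 pairs the within-array differences of the 2 groups did not overlap, which for 3 against 3 cannot go below 0.1.

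The promoters of the 4 genes are shown because all 4 rose, by differing amounts, and because ATF6 and XBP1 themselves bind a known DNA element, ERSE. ERSE is written CCAAT, 9 bases of any kind, then CCACG. The windows are the 250 bases before the RefSeq start site (GRCh38.p14), 5′ to 3′ in the direction of the gene, with CCAAT and CCACG on either strand in capitals (ATTGG and CGTGG on the opposite strand). All 4 genes matched the RefSeq promoter table. XBP1 has a further start site there, at chr22:28800078-28800327, which holds CCACG at 2 places but no CCAAT and is not printed.
XBP1, chr22:28800570-28800819, minus strand: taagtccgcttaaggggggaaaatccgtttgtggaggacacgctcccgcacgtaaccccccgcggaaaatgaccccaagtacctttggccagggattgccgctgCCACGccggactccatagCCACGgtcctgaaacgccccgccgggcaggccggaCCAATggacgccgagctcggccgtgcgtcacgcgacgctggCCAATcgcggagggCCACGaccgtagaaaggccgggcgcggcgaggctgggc
ERN1, chr17:64130145-64130394, minus strand: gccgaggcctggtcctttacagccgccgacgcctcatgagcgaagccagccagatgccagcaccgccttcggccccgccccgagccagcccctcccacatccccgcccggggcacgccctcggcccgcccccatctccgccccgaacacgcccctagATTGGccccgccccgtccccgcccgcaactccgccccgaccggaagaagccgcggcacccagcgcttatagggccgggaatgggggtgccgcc
SEL1L, chr14:81533854-81534103, minus strand: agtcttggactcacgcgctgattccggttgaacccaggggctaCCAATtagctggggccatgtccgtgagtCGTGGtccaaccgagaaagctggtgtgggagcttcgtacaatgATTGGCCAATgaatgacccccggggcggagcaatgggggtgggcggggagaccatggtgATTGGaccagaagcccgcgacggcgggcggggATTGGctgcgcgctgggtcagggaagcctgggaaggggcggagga
ATF6, chr1:161766070-161766319, plus strand: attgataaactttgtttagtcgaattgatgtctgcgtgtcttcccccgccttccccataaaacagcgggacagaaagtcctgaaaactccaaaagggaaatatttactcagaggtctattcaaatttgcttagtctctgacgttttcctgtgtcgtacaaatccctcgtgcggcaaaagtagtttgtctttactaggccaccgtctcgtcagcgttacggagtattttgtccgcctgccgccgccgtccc

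The XBP1 window holds 1 whole ERSE, which runs from 52 to 34 bases before the start site, where CCAAT and CCACG stand in capitals 9 bases apart. Its letters contain those of the CCAAT and CCACG searches. ERSE occurred in 26 of 35116 windows of the same length (0.074%), while CCAAT alone occurred in 32.0% and CCACG alone in 33.5%. SEL1L has CCAAT at 5 places and CCACG at 1 without that spacing, ERN1 has CCAAT at 1 place, and the ATF6 window has neither. Neither TGACGTG, the core of the ATF6 and XBP1 binding site (1.68% of windows), nor TGATGNAAT, letters of the ATF4 composite site (0.888%), was found on either strand of these windows. ERSE-II, written ATTGG, 1 base of any kind, then CCACG, was not found either (0.0513% of windows). Such matches describe letters in a window and not binding.

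ERSE also served to pick genes by the letters of their windows, although this was done after array values had been seen. The 26 windows belonged to 25 genes, of which 11 had a named row. Of these 11, 4 rose: XBP1, TMEM120A by 0.85 ± 0.09 (SE), SERP1, an ER membrane protein of the translocon, by 0.34 ± 0.08, and the lectin chaperone CANX by 0.26 ± 0.07. ZNF17 (-0.75 ± 0.14) and SYNPO (-0.35 ± 0.10) fell, and 5 did not pass: CALR (0.15), CRELD2 (0.03), FICD (0.01), TRIM5 (0.0006) and ERO1B (-0.37). The call of CANX was lost without any 1 of the 6 arrays (adjusted p from 0.0571 to 0.105) and its change was 0.08 after quantile normalization. That of SYNPO was lost without any 1 array but DMSO b or NCT-503 b (0.0694 to 0.114), and that of SERP1 without DMSO a (0.0544). The median of the 11 was 0.03, against 0.06 over all genes tested, of which 16.4% were called higher and 17.1% lower. XBP1 had the largest change of the 11, but it was chosen for this report with earlier results of these data known. The windows of HSPA5, HSP90B1 and PDIA6, like CALR genes of the list of ER chaperones and foldases, hold it too, and their transcripts were not analysed here.

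Among the sensors and the factors that process them, 23 of the 32 listed genes were measured. In all, 8 rose (34.8%, against 16.4% of all genes) and 5 fell (21.7%, against 17.1%), with a median change of 0.21. Without XBP1, ERN1 and ATF6, which this list contains, 5 of 20 rose and 5 fell, and the median was 0.14. CREB3, an ER-membrane factor cut free in the Golgi like ATF6, rose by 0.56 ± 0.10 (SE, adjusted p = 0.00391).

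The relatives of the sensors gave other values. ATF6B, the close relative of ATF6, read 8.07, 8.14 and 8.06 in DMSO and 8.14, 8.14 and 7.98 with NCT-503. These groups overlapped, and the change of -0.006 ± 0.08 did not pass (adjusted p = 0.960). ERN2, the epithelial relative of ERN1, had a change of 0.33 ± 0.18 and did not pass (adjusted p = 0.211), but without DMSO c the change was 0.54 and was called (adjusted p = 0.0155). RTCB, the ligase that joins the cut XBP1 mRNA, had a change of 0.14 ± 0.07 (adjusted p = 0.179; 0.0485 with a mean-variance trend and robust settings). The proteases MBTPS1 and MBTPS2, which cut ATF6, and the IRE1 partner TRAF2 were not analysed here.

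EIF2AK3, the gene of the PERK sensor, stood at 6.15, 6.19 and 6.16 in DMSO and at 5.75, 5.71 and 5.89 with NCT-503. Each treated array was below each DMSO array. It fell by 0.39 on the log2 scale (-0.39 ± 0.08 SE, adjusted p = 0.00846), the opposite sign to ERN1 and ATF6. The other 4 falls were MAP3K5, the kinase ASK1 that acts below IRE1 (-0.80 ± 0.13), WFS1, an ER membrane protein that restrains ATF6 (-0.58 ± 0.09), TMEM33, an ER membrane protein (-0.51 ± 0.09), and ZBTB8OS, archease, which helps RTCB (-0.36 ± 0.10, adjusted p = 0.0354). The ZBTB8OS call was lost without DMSO a, b or c or NCT-503 b or c (adjusted p from 0.066 to 0.0989).

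**Figure D3:**
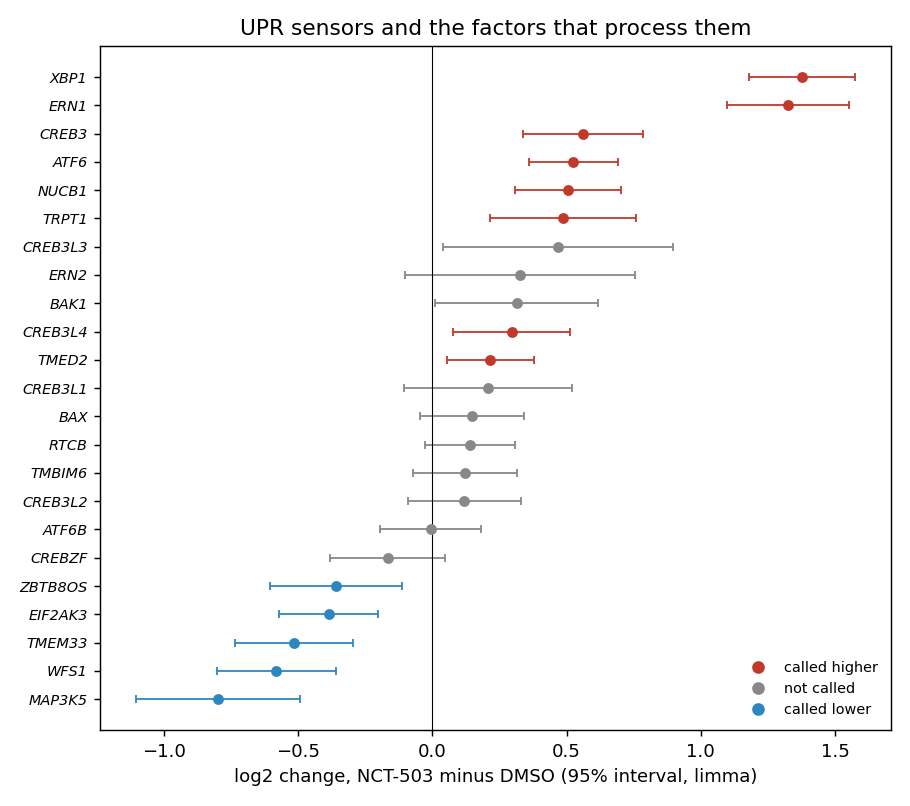
The log2 change with its 95% interval from limma (horizontal axis) for the 23 measured sensors and sensor-processing factors (vertical axis), red where called higher, blue where called lower and grey where not called. XBP1 and ERN1 lie apart on the right at 1.38 and 1.33, and EIF2AK3 lies left of 0 at -0.39.

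SEL1L had the largest rise among the measured genes of ER-associated degradation, of which 33 of 50 were measured. Of these, 10 rose (30.3%, against 16.4% of all genes), 5 fell (15.2%, against 17.1%) and 18 did not pass. The median change was 0.09. Without SEL1L, 9 of 32 rose and 5 fell. After SEL1L came UBXN6, a cofactor of the VCP ATPase, with a rise of 0.70 ± 0.10 (SE), HERPUD2, a relative of the ER stress gene HERPUD1, with 0.65 ± 0.07, and the ubiquitin receptor UBQLN1 with 0.56 ± 0.09.

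The falls in this list (15.2%, against 17.1% of all genes, dim genes included) were UBE2G2, VCP, NPLOC4, ATXN3 and YOD1. UBE2G2, a ubiquitin-conjugating enzyme, read 8.49, 8.47 and 8.61 in DMSO and 7.45, 7.36 and 7.53 with NCT-503. It fell by 1.08 (-1.08 ± 0.08 SE, adjusted p = 0.000147), with all treated arrays below all DMSO arrays. VCP, the ATPase that pulls proteins out of the membrane, fell by 0.58 ± 0.10, and its cofactor NPLOC4 by 0.60 ± 0.09. The deubiquitinases ATXN3 and YOD1 fell by 0.41 ± 0.08 and 0.38 ± 0.08. SYVN1, which encodes the HRD1 ligase that SEL1L serves, and EDEM1 and HERPUD1 were not analysed here.

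ER chaperones and foldases, which fold and glycosylate new proteins, moved in both directions. Of 25 measured of 45 listed, 7 rose (28.0%, against 16.4% of all genes), 4 fell (16.0%, against 17.1%) and 14 did not pass. The median change was 0.03 against 0.06 over all genes. With arrays centred on their 75th percentile, 9 rose and 2 fell, and without DMSO c, 4 rose and 1 fell. The rises were led by PRKCSH, the beta subunit of glucosidase II (0.54 ± 0.08 SE), the thiol protein ERP44 (0.51 ± 0.08), MANF, a secreted ER stress protein (0.50 ± 0.11), and ERP29 (0.39 ± 0.08). UGGT2, which re-glucosylates misfolded glycoproteins, fell by 0.99 ± 0.07 (adjusted p = 0.000108), and its relative UGGT1 by 0.33 ± 0.07. The other 2 falls were FKBP7 (-0.29) and CNPY2 (-0.28). Leaving out DMSO c ended the call of UGGT1. The call of CNPY2 was lost without any 1 array but NCT-503 a (adjusted p from 0.058 to 0.0876), and that of FKBP7 without any 1 array but DMSO a (0.0584 to 0.126). The count of falls was 2 without DMSO b, NCT-503 b or NCT-503 c.

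CALR, calreticulin, is a lectin chaperone and the first listed chaperone with a named row, and served as the reference for a direct comparison. It read 10.72, 10.78 and 10.81 in DMSO and 10.96, 10.94 and 10.85 with NCT-503. The change of 0.15 ± 0.07 did not pass (adjusted p = 0.166), although it did with a mean-variance trend (0.0117) or with arrays centred on the 75th percentile (0.0468). SDF2L1, a chaperone partner, had a change of -0.14 ± 0.11 (adjusted p = 0.370). All 4 genes rose by more than CALR, as did 7.79% of 14778 genes. The differences were 1.23 ± 0.09 for XBP1, 1.18 ± 0.09 for ERN1 and 0.65 ± 0.08 for SEL1L (SE, adjusted p = 4.52e-05, 7.17e-05 and 0.000630). For ATF6 the difference was 0.38 ± 0.09 (adjusted p = 0.0128). CALR is 1 of 25 measured chaperones and foldases, and the comparison does not extend to the others. The highest change among them, 0.54 for PRKCSH, was slightly above that of ATF6 (0.53).

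**Figure D4:**
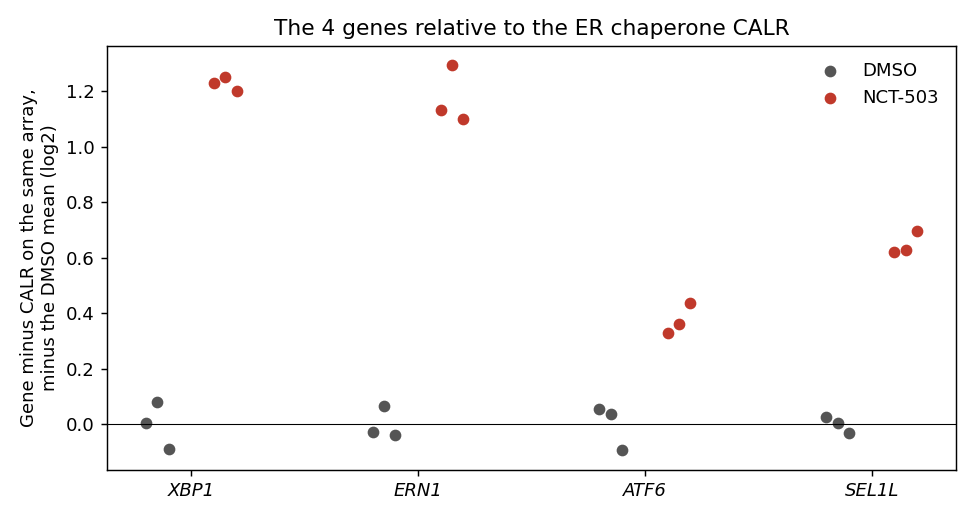
Each gene's log2 value minus that of CALR on the same array, shown relative to its DMSO mean (vertical axis), for DMSO (grey) and NCT-503 (red), 1 point per array. The red points lie above the grey ones in each gene, with mean differences from 0.38 in ATF6 to 1.23 in XBP1.

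Genes of ER translocation, signal peptide cleavage and vesicle transport, many of them XBP1 targets in secretory cells, went both ways. Of 38 measured of 59, 13 rose (34.2%, against 16.4% of all genes), 6 fell (15.8%, against 17.1%) and 19 did not pass. The median was 0.15. ARFGAP3, which acts on Golgi vesicle coats, rose by 0.99 ± 0.08 (SE, adjusted p = 0.000182), and the retrieval receptors KDELR1 and KDELR3 rose by 0.59 ± 0.08 and 0.56 ± 0.09. TRAM2, a translocon protein, fell by 1.27 ± 0.09 (adjusted p = 9.45e-05), and the vesicle-coat protein SAR1B by 0.52 ± 0.07. The count of rises was 7 without DMSO a and 8 without DMSO c.

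The genes below PERK were mostly higher although EIF2AK3 was lower. Of 14 measured of 25, EIF2AK3 included, 10 rose (71.4%, against 16.4% of all genes). Only EIF2AK3 fell (7.14%, against 17.1%), and the median change was 0.65. DDIT3, which encodes the stress factor CHOP, read 4.27, 4.59 and 4.60 in DMSO and 8.08, 7.89 and 7.68 with NCT-503, a rise of 3.40 ± 0.14 (SE, adjusted p = 1.20e-05). TRIB3, a pseudokinase induced by ATF4 and CHOP, rose by 2.13 ± 0.17, and ATF4 itself by 0.71 ± 0.08. CARS1, ATF3 and VEGFA, listed here as genes that follow ATF4 in ER stress, rose by 1.12 ± 0.08, 0.92 ± 0.16 and 0.85 ± 0.09. ATF4 is also raised by kinases other than PERK, and this list does not separate them. PPP1R15A, the phosphatase subunit that reverses eIF2 alpha phosphorylation, was not analysed here.

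IRE1 also degrades some ER-bound mRNAs. Of 17 transcripts reported as such targets, 9 were measured, of which 2 rose (22.2%, against 16.4% of all genes) and 1 fell (11.1%, against 17.1%). HGSNAT fell by 0.61 ± 0.07 (SE, adjusted p = 0.000912), ARFGAP3 and PER1 (0.31 ± 0.07) rose, and 6 did not pass, with a median of 0.14. BLOC1S1, the most used marker of this decay, was not analysed here.

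Over the 6 lists together, 221 genes were named and 139 measured. Besides the 4 genes, 45 of 135 rose, 21 fell and 69 did not pass. Over all genes tested, dim genes included, 16.4% were called higher and 17.1% lower. Only 2 of the 135, DDIT3 and TRIB3, had a change above those of XBP1 and ERN1, 6 were above SEL1L and 18 above ATF6.

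**Figure D5:**
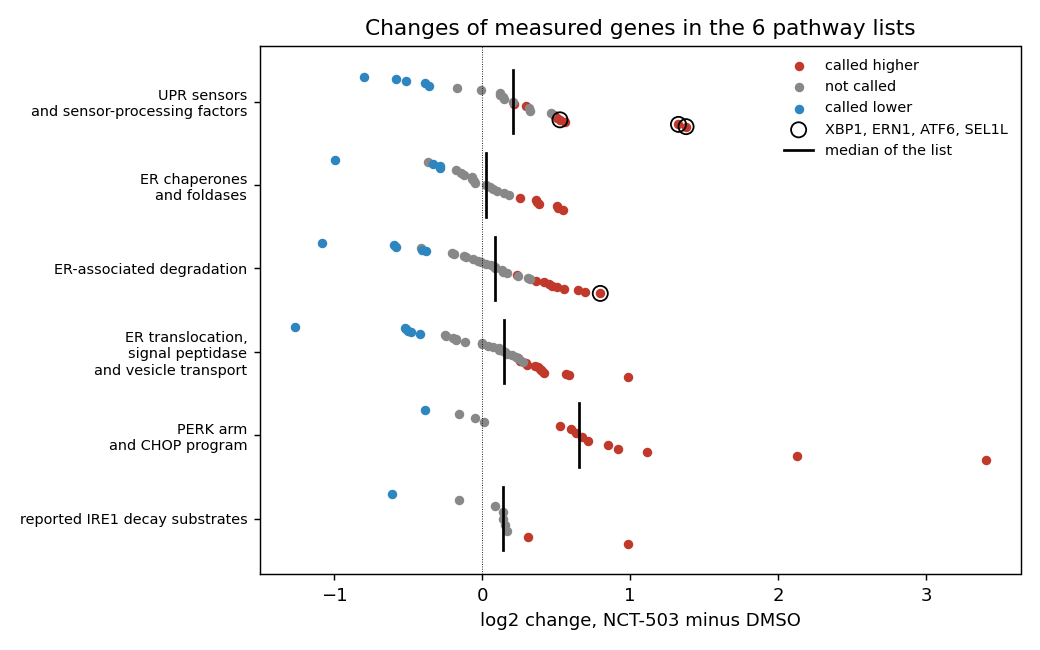
The log2 change (horizontal axis) of each measured gene in the 6 pathway lists (vertical axis), 1 point per gene, coloured by call; vertical bars mark list medians, and rings mark the 4 genes. The median is 0.65 for the list of PERK and the genes below it and lies between 0.03 and 0.21 for the other 5 lists. Genes in 2 lists are drawn in each.

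The arrays of a group correlated at 0.990 to 0.993 and those of different groups at 0.971 to 0.972 (Pearson, across all rows). The 75th percentile over all rows was lower with NCT-503 (6.03 to 6.08) than with DMSO (6.16 to 6.19). With arrays centred on that percentile over the named genes, the changes of XBP1, ERN1, SEL1L and ATF6 were 1.45, 1.39, 0.87 and 0.59. The neuroblastoma label was checked on 14 adrenergic marker genes: 11 were measured and all had levels above the median gene (for example STMN2 at 11.67 and DBH at 10.04 in DMSO). That check is rough because rows differ in brightness. Of these 11, 3 rose and 4 fell, and their summed log2 level was 100.7 to 101.5 in DMSO and 98.7 to 99.7 with NCT-503; its part in the results was not tested. The 3 measured Schwann markers and the 2 leukocyte markers lay below the median gene, and none was called. Of the 2 plasma cell markers, MZB1 was not called (0.16) and SDC1 fell (-0.38). Of the 2 fibroblast markers, DCN fell (-0.47) and LUM did not pass (-0.24). By level, SDC1 (percentile 64.8) and LUM (80.1) lay above the median gene, and MZB1 (44.0) and DCN (42.5) below it. The adrenergic marker TH stood at percentile 64.7, so level alone did not separate these types.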

How the data were processed

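The deposited table holds log2 expression values, recognised by their range (0.578 to 13.6). They come from Partek, per the submitters' processing notes, with no version named; how the authors corrected background and normalized them was not given in the sources used here. No scanner values were used, so the signal over background of a row is unknown and the fold of a dim gene may be too small.

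Rows were named from the platform annotation (15098 rows with 1 symbol, 16037 unnamed), with symbols updated by Entrez identifier to GRCh38.p14, and the row with the highest mean was kept per gene. The main test was limma 3.58.1 (R 4.3.3), a 2-group fit to all arrays with eBayes and no trend. Its two-sided p-values were adjusted by Benjamini-Hochberg over 14779 genes. A call is an adjusted p under 0.05, and intervals are 95%. The steps were tested on simulated data. For differences between genes, the log2 value of XBP1 or CALR was subtracted within each array before the same fit. CALR stands in for the planned reference HSPA5, which was not analysed here.

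The 4 genes and the lists were chosen with earlier results of these data known. Named genes are the 4, a fixed set of pathway genes, and in each list the up to 5 called genes of largest absolute change and the calls in the minority direction where 5 or fewer. For each of the 4, the 3 genes of most like pattern are named. UBQLN1, ERN2, the genes holding ERSE, the chromosomal neighbours and the cell type markers were named after their values were seen. Alternatives were other variance models, array weights, a replicate block, 3 scalings, 2 filters on level, other choices of rows, leaving out each array and a threshold of 0.01.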

Additional observations from a re-analysis of the deposited data

How the results depend on the processing

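Over 18 alternatives, the changes of XBP1, ERN1, ATF6 and SEL1L kept direction and call in all 72 recomputed values. XBP1 ranged from 1.35 to 1.45, ERN1 from 1.25 to 1.40, SEL1L from 0.78 to 0.87 and ATF6 from 0.49 to 0.59, with adjusted p at most 0.00189, 0.00363, 0.00311 and 0.00874. With the replicate letter as a replicate block the changes were the same and the adjusted p for XBP1 was 0.00124; 2108 genes were called higher and 2327 lower, against 2419 and 2534. Same-lettered samples did not deviate together (correlations 0.0036, 0.0026 and 0.037), so letters were not taken as pairs. Differences from XBP1 and CALR kept direction and call, except that of ATF6 from CALR (0.38, adjusted p = 0.0128) at a threshold of 0.01; its adjusted p reached 0.0483 at most. At that threshold, which by construction calls fewer, 1226 genes were higher and 1682 lower. Testing every row of the table, with more rows by construction, gave 4100 lower. Centring on the 75th percentile moved the median change of the genes by 0.07 and the share of higher calls from 48.8% to 60.4%.

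Counts in the lists that moved by over 1.5 times were these. At the 0.01 threshold, rises were 5 rather than 8 for sensors, 2 rather than 7 for chaperones, 7 rather than 13 for translocation and transport and 1 rather than 2 for decay substrates, and chaperone falls were 1 rather than 4. Degradation genes had 8 falls rather than 5 with trend and robust settings. Chaperone falls were 2 with the replicate block or 75th percentile centring. The number of arrays limits precision: the median SE was 0.105.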

Other observations

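Genes of like pattern were sought by their 6 values after subtraction of each gene's mean. Pathway genes were included, and LOC, LINC, orf, MIR, SNOR and antisense names were left out. The genes most like XBP1 were YPEL2 (distance 0.133, change 1.42), CRY2 (0.134, change 1.29), a circadian repressor, and HSPA1B (0.144, change 1.39), a heat shock chaperone with a near-identical copy. For ERN1 they were CRY2 (0.087), IRF2BP2 (0.131, change 1.36) and XBP1 itself (0.144). ATF6 was closest to MED15, a Mediator subunit (0.042, change 0.55), PCBP1 (0.045, change 0.53) and INO80E (0.061, change 0.49). SEL1L was closest to GLCE (0.056, change 0.80), the lysosomal protease gene CTSB (0.059, change 0.76) and BBS2 (0.069, change 0.80). The distance is Euclidean over 6 arrays and is set mainly by the size of the group difference.

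The nearest measured genes on the chromosome did not share the rise of ERN1, ATF6 or SEL1L at an adjusted p under 0.05. ICAM2 and TEX2 beside ERN1 had changes of 0.29 ± 0.11 (SE) and -0.08 ± 0.08, DUSP12 and OLFML2B beside ATF6 of -0.11 ± 0.08 and 0.04 ± 0.13, and TSHR and FLRT2 beside SEL1L of 0.18 ± 0.12 and 0.16 ± 0.15. TSHR and FLRT2 were dim, not above the 25th percentile of level, and OLFML2B was not above the 50th. A rise of such dim genes may go unseen. ICAM2 was called higher in 6 of 18 alternatives: without DMSO b (0.39, adjusted p = 0.0373), with trend and robust settings (0.034), after centring on the median (0.0476) or the 75th percentile (0.033), after quantile normalization (0.0349) and among genes above the 50th percentile of level (0.0309). Beside XBP1, ZNRF3 rose by 0.46 ± 0.08 and CCDC117 fell by 0.37 ± 0.07.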
